A study of Homo sapiens with 3 samples.

Results

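The genes examined here encode the proteins that recognise DNA or RNA in the cytosol and pass the alarm on. The 10 members were AIM2, CGAS, STING1, IFI16, IFIH1, RIGI, MAVS, EIF2AK2, ADAR and TREX1, and their rows were found by gene symbol. All 10 were found among the 14949 genes of the deposited expression table, with RIGI under its older symbol DDX58. The table came from RNA sequencing of MIAPaCa-2, an established line of human pancreatic cancer cells, with 3 libraries in all. One library came from untreated cells with a control short hairpin RNA (sh-CTL). Another came from untreated cells with a hairpin against METTL3 (sh-METTL3), the catalytic subunit of the enzyme that writes N6-methyladenosine (m6A) on RNA. The third came from sh-CTL cells kept for 24 h in 80 nM NMS-P937, an inhibitor of PLK1 (sh-CTL + PLK1i), a kinase needed in mitosis. The knockdown asks how transcripts differ when the m6A writer is reduced, and the inhibitor how they differ when PLK1 is blocked, a kinase whose link to METTL3 the study examined. The second library is called the knockdown below, and values of the third are given as under PLK1i. The knockdown line was received as a gift, and the sources used here do not say whether it is a single clone or whether a vehicle was given to the untreated cells.

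Each group held 1 library, so no difference had a replicate check and no p-value was computed. Both comparisons use the same sh-CTL library, and a deviation of that library would enter both. The listed genes held 37449259 reads in sh-CTL, 46944920 in the knockdown and 47727541 under PLK1i. METTL3 itself had 3378, 1781 and 4223 reads in that order, which left a normalized count in the knockdown of 41.9% of the control. PLK1, with 6910, 5638 and 9249 reads, stood at 64.9% of the control in sh-METTL3. Of the epithelial markers, KRT8, KRT18 and KRT19 were listed while EPCAM, CDH1 and KRT7 were not. SOX9 was listed alone among 8 markers of the pancreatic lineage. Among 8 leukocyte markers, PTPRC, which defines leukocytes, was not listed. CD14, CD68 and LYZ were, with summed normalized counts of 1911 in sh-CTL, 3436 in the knockdown and 2772 under PLK1i.

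Cells normally keep their DNA in the nucleus and mitochondria, so DNA in the cytosol is read as a sign of infection or damage. CGAS binds such DNA and makes a cyclic dinucleotide that activates STING1 on the endoplasmic reticulum, which in turn engages the kinase TBK1 and the transcription factor IRF3 to induce type I interferon. AIM2 also binds cytosolic DNA, but it assembles an inflammasome through PYCARD and caspase-1. RIGI and IFIH1 (also called MDA5) recognise viral or misplaced double-stranded RNA and signal through MAVS on mitochondria. EIF2AK2 (PKR) is a kinase that binds double-stranded RNA and stops translation, whereas ADAR edits double-stranded RNA and TREX1 degrades DNA, so both remove ligands before they are sensed. Many of these genes are themselves induced by interferon, and m6A and ADAR editing are each known to help cells tell their own RNA from foreign RNA.

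The promoter letters of the members are shown first because interferon acts on several of these genes through a short element, the interferon-stimulated response element. RefSeq promoter windows on GRCh38.p14, each reaching from 250 bases before the start site to 50 after it, were found for 8 of the 10 members, with more than 1 window for IFI16 and ADAR. Windows were searched on both strands for GAAANNGAAA, the core of that element, for GAAANGAAA, a form with 1 base fewer between the repeats, and for GGGANTTTCC, a form of the NF-kB element. The first was held by 3.57% of all 35116 windows, the second by 3.12% and the third by 0.558%. GAAANNGAAA occurred in the windows of AIM2, IFIH1 and EIF2AK2. GAAANGAAA occurred in those of RIGI and in 1 of the IFI16 windows, and GGGANTTTCC in those of IFIH1 and RIGI. None of the 3 patterns was in the windows of MAVS, ADAR or TREX1. The capitals below mark each match, and a match on the other strand appears as its reverse complement. The first 4 sequences are the 250 bases before the start, and the last is a stretch of 30 bases around the start of EIF2AK2, whose match spans positions -6 to 4.

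AIM2 (chr1:159076767-159077016, minus strand): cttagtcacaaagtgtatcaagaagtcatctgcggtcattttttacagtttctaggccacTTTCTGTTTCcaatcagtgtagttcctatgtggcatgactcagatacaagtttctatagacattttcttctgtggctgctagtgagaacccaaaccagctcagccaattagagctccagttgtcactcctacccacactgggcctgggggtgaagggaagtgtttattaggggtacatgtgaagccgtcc
IFIH1 (chr2:162318685-162318934, minus strand): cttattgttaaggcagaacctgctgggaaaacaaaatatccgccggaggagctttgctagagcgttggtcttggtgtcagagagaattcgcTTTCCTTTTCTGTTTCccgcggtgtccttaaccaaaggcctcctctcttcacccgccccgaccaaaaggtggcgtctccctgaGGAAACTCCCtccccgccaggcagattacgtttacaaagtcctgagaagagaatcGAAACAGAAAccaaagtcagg
IFI16 (chr1:159009657-159009906, plus strand): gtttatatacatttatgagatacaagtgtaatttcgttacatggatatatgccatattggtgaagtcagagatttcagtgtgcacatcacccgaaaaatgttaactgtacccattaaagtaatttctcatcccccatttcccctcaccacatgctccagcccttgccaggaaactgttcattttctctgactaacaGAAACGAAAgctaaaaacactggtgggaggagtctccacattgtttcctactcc
RIGI (chr9:32526197-32526446, minus strand): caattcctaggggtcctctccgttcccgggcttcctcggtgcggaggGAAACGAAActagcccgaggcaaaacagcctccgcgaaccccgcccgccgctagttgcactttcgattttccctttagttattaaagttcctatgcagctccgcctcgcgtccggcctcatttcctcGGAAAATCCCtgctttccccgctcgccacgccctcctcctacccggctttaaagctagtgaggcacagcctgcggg
EIF2AK2 (chr2:37156967-37156996, minus strand): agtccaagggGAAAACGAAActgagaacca

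The AIM2 match read GAAACAGAAA on the other strand, at positions -190 to -181. The same 10 letters occurred at 2 places in the IFIH1 window, at -153 to -144 on the other strand and at -21 to -12 on the strand shown. These matches are letters in the reference genome. No binding was measured, and the matches were not tied to the values that follow.

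The members differed widely in abundance. Levels were compared between genes as RPKM, here reads per kilobase of merged exons scaled to the reads in listed genes. In sh-CTL the order from high to low was ADAR at 39.4, MAVS at 18.3, EIF2AK2 at 16.1, CGAS at 7.97, TREX1 at 6.69, IFI16 at 3.85, RIGI at 1.35, STING1 at 0.746, IFIH1 at 0.588 and AIM2 at 0.382. The order was the same in sh-CTL + PLK1i and when the longest annotated transcript set the length. In sh-METTL3, EIF2AK2 at 18.3 stood above MAVS at 15.8, and TREX1 at 9.99 stood above CGAS at 8.32. The mitochondrial adaptor MAVS was thus far more abundant than the RNA sensors RIGI and IFIH1 that signal through it, and the DNA sensor CGAS was more abundant than its partner STING1. Normalized counts, used from here on, are reads divided by a size factor of the library that was inferred from the deposited values. They compare 1 gene between libraries.

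**Figure D1:**
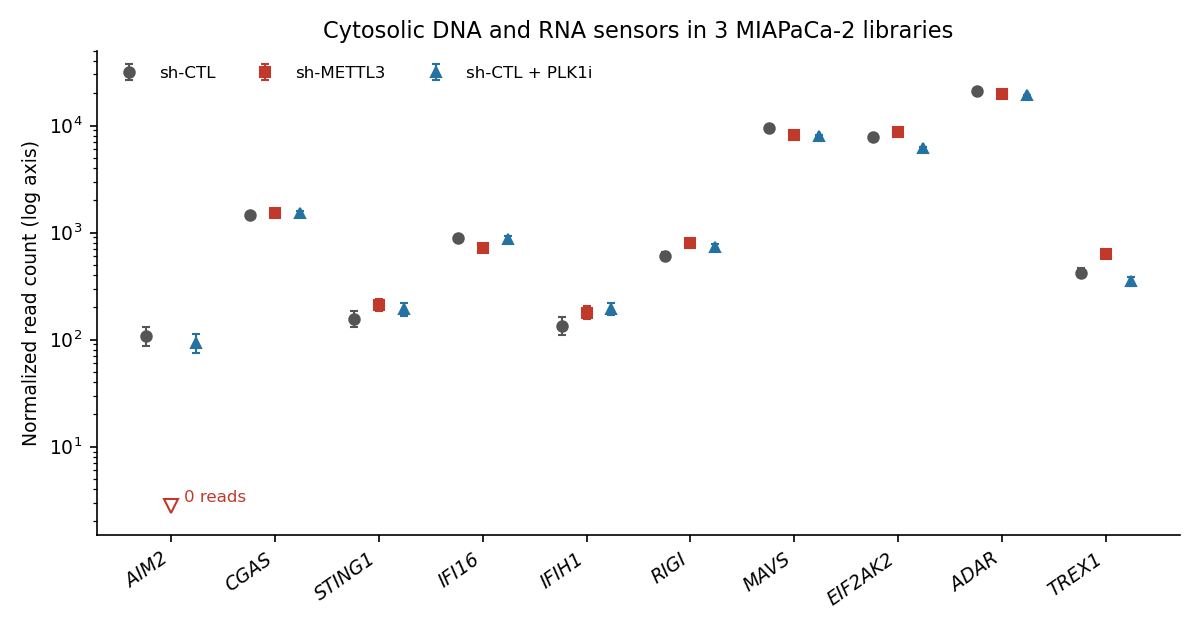
Normalized read counts (log axis) of the 10 sensor genes in sh-CTL (circles), sh-METTL3 (squares) and sh-CTL + PLK1i (triangles), with 1 library a group. Bars are exact 95% Poisson intervals of the reads (counting error only), and the open triangle marks AIM2 with 0 reads in sh-METTL3, drawn at the floor of 3 reads.

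AIM2 fell in sh-METTL3 and was the member that differed most between libraries. AIM2 (ENSG00000163568, GRCh37 chromosome 1, 159031389 to 159157633, minus strand) had 92 reads in sh-CTL, 0 in the knockdown and 100 under PLK1i. The normalized counts were 107.3, 0 and 92.1. The gene was thus detected in both libraries with the control hairpin and not in the library with the METTL3 hairpin. A count of 0 allows up to 3 reads, or a normalized count of 2.78, so that against this floor, with the sh-CTL count taken as measured, AIM2 was at least 38.6-fold lower in sh-METTL3. The 95% counting interval of the ratio, which also carries the error of the sh-CTL count, reached up to 3.25% of the control. In sh-CTL + PLK1i the log2 difference from sh-CTL was -0.22 with a 95% counting interval of -0.64 to 0.20, which includes no difference. In a bulk library, fewer cells with AIM2 RNA and less AIM2 RNA in each cell cannot be told apart.

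A complete loss of reads of this kind was rare. Of 12625 genes with at least 50 reads in sh-CTL, 5 had 0 reads in sh-METTL3, or 0.0396%. They were AIM2, HTR7, MMP16, ENSG00000256500 and ENSG00000262633, and all had at least 50 reads in sh-CTL + PLK1i. At 0 reads in sh-CTL + PLK1i was 1 of the same 12625 genes, RNVU1-9, or 0.00792%. The count of genes at 0 reads was made after the values of AIM2 were seen, it covers genes of all abundances above the minimum, and it leaves out near losses. Among 2170 genes with a mean within 2-fold of that of AIM2, 0.230% differed as much in sh-METTL3, in either direction.

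The fall of AIM2 was not shared by the 25 neighbours on the chromosome that were compared. These were the nearest listed genes averaging 50 or more normalized counts over the 3 libraries, all within 2.10 Mb. Their median log2 difference between sh-METTL3 and sh-CTL was -0.098. At least 2-fold different were 0 of the 25, against 3.71% of all genes with such a mean, so few would differ in any case. Apart from IFI16, the closest midpoint lay 0.734 Mb from the AIM2 start, so the 25 say little about the immediate surroundings. Nearby genes below that minimum were left out, so a loss among them was not tested. IFI16, the other DNA sensor of the same gene family, lies 6.44 kb from AIM2. PYHIN1 and MNDA, the remaining members of that family in the cluster, were not listed. CADM3, which overlaps AIM2 on the opposite strand, was not listed either.

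**Figure D2:**
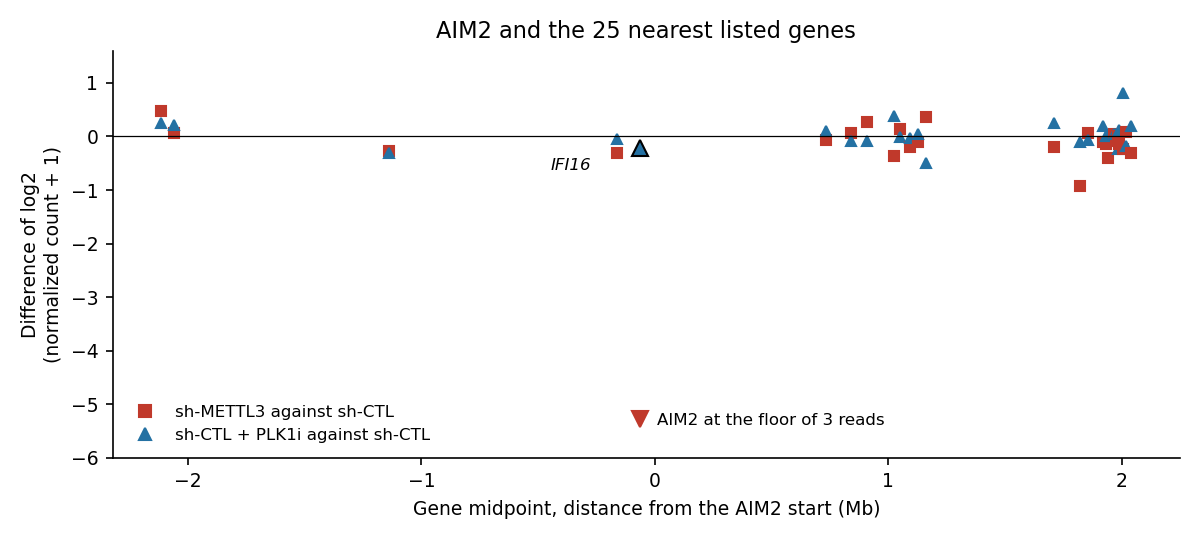
Difference of log2(normalized count + 1) from sh-CTL for AIM2 and 25 neighbours, against the distance of each gene's midpoint from the annotated AIM2 start in Mb. The neighbours are the nearest listed genes averaging 50 or more normalized counts over the 3 libraries. Squares give sh-METTL3 and triangles sh-CTL + PLK1i (AIM2 outlined), and AIM2 in sh-METTL3 is drawn at the floor of 3 reads, far below the neighbours.

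The 3 named genes whose pattern over the 3 libraries was most like that of AIM2 were MMP16, TPD52L1 and PALM2AKAP2. Likeness was the Euclidean distance between centred log2(normalized count + 1) values, over genes whose mean normalized count reached 20. MMP16, at a distance of 0.268, had 72 reads in sh-CTL, 0 in the knockdown and 81 under PLK1i. TPD52L1 (0.352) had 431, 6 and 543 reads, and PALM2AKAP2 (0.412) had 172, 1 and 134. With 3 libraries, such a pattern is little more than a loss in sh-METTL3.

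The DNA sensor CGAS lay close to sh-CTL in both other libraries, and its partner STING1 stood above it by less than 2-fold. CGAS (ENSG00000164430, chromosome 6, 74123238 to 74162020) had normalized counts of 1453 in sh-CTL, 1512 in the knockdown and 1531 under PLK1i. Its log2 differences were 0.057 (-0.050 to 0.16) in the knockdown and 0.075 (-0.031 to 0.18) under PLK1i, with 95% counting intervals in parentheses here and from here on. Both intervals of CGAS include no difference and stop well short of 1.5-fold.

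STING1 (ENSG00000184584, chromosome 5, 138855118 to 138862520), the adaptor that CGAS activates, had 134 reads in sh-CTL, 228 in the knockdown and 209 under PLK1i. Its normalized counts were 156.3, 211.3 and 192.4. The log2 difference was 0.43 (0.12 to 0.75) in the knockdown and 0.30 (-0.020 to 0.62) under PLK1i. Neither reached 2-fold, and the interval in sh-CTL + PLK1i includes no difference.

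IFI16 (ENSG00000163565, chromosome 1, 158969758 to 159024945), a sensor of DNA in both nucleus and cytosol, had normalized counts of 889.7 in sh-CTL, 714.6 in the knockdown and 864.5 under PLK1i. The log2 difference was -0.32 (-0.46 to -0.17) in the knockdown and -0.042 (-0.18 to 0.098) under PLK1i. IFI16 in sh-METTL3 was therefore at 80.3% of the control, beside a neighbour with no reads at all.

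**Figure D3:**
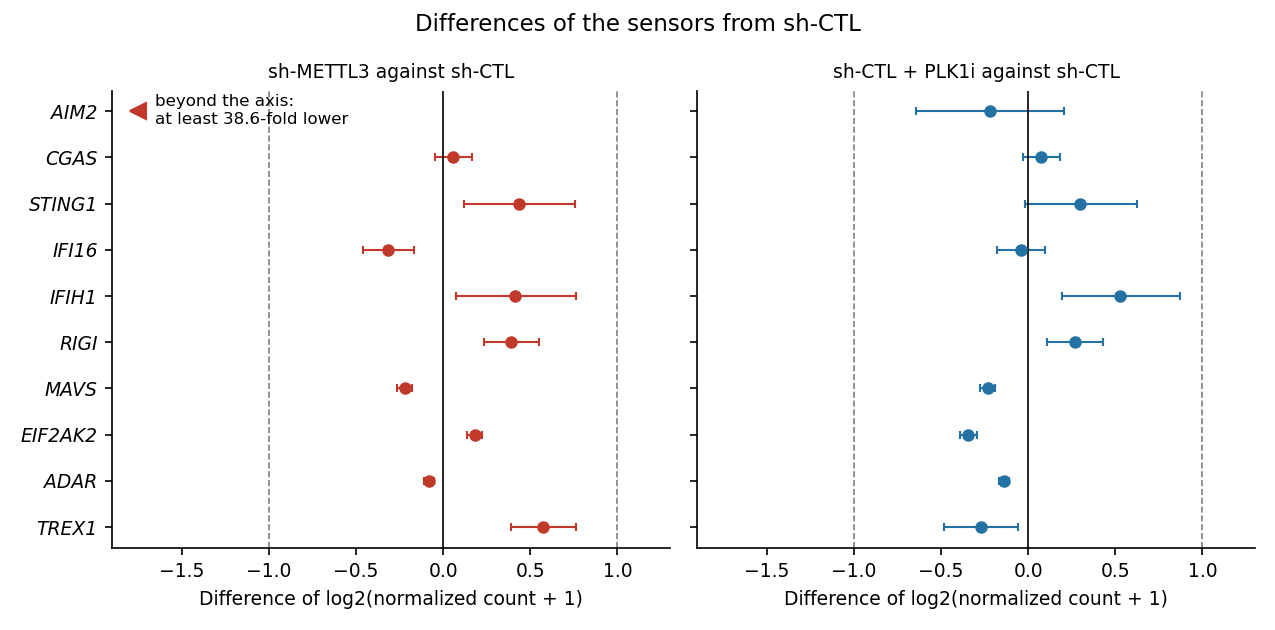
Difference of log2(normalized count + 1) from sh-CTL for each sensor in sh-METTL3 (left) and sh-CTL + PLK1i (right), with 95% counting intervals between 2 libraries and dashed lines at 2-fold. AIM2 in sh-METTL3 lies beyond the axis, at least 38.6-fold lower against the floor of 3 reads, and every other point lies inside the 2-fold lines.

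The RNA sensors were above the control in both other libraries, by less than 2-fold. IFIH1 (ENSG00000115267, chromosome 2, 163123584 to 163175194), which binds long double-stranded RNA, had 115 reads in sh-CTL, 193 in the knockdown and 210 under PLK1i, or normalized counts of 134.1, 178.9 and 193.3. Its log2 difference was 0.41 (0.075 to 0.76) in the knockdown and 0.52 (0.19 to 0.87) under PLK1i. Both intervals leave out 0, and the low counts leave them wide.

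RIGI (ENSG00000107201, chromosome 9, 32455300 to 32526206), which binds RNA with a free 5′ triphosphate, had normalized counts of 609.9, 799.0 and 734.6 in the order sh-CTL, sh-METTL3 and sh-CTL + PLK1i. The log2 difference was 0.39 (0.23 to 0.55) in the knockdown and 0.27 (0.11 to 0.43) under PLK1i. A further gene model on the same strand, ENSG00000288684, overlaps RIGI and took 35, 93 and 108 reads. With the reads of both summed, the differences were 0.44 and 0.36.

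MAVS (ENSG00000088888, chromosome 20, 3827446 to 3856770) had normalized counts of 9420 in sh-CTL, 8084 in the knockdown and 8010 under PLK1i. The adaptor was thus below the control in both libraries in which the sensors RIGI and IFIH1 were above it. The log2 difference was -0.22 (-0.26 to -0.18) in the knockdown and -0.23 (-0.28 to -0.19) under PLK1i. In sh-METTL3, the 25 nearest genes to MAVS, chosen as for AIM2, had a median of -0.15, which leaves -0.071 for MAVS relative to them. In sh-CTL + PLK1i their median was 0.045, and MAVS stood at -0.28 relative to them.

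The double-stranded RNA kinase EIF2AK2 lay on opposite sides of the control in the other libraries. EIF2AK2 (ENSG00000055332, chromosome 2, 37326353 to 37384665) had normalized counts of 7762 in sh-CTL, 8789 in the knockdown and 6112 under PLK1i. The log2 difference was 0.18 (0.13 to 0.22) in the knockdown and -0.34 (-0.39 to -0.30) under PLK1i. Of 2221 genes with a mean within 2-fold of that of EIF2AK2, 4.05% differed as much as the second value in sh-CTL + PLK1i. That was the smallest such share among the 10 members in this comparison, and some member has to hold it. For the first value the share was 31.7%. Set directly against sh-CTL + PLK1i, sh-METTL3 was higher by 0.52 (0.48 to 0.57) on the log2 scale. GPATCH11, on the opposite strand and overlapping EIF2AK2, had 750, 1008 and 1014 reads, and whether the counting used strand is not given in the sources used here.

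ADAR (ENSG00000160710, chromosome 1, 154554171 to 154600489), the editing enzyme, differed least from the control among the 3 most abundant members. Its normalized counts were 21082 in sh-CTL, 19913 in the knockdown and 19117 under PLK1i. The log2 difference was -0.082 (-0.11 to -0.054) in the knockdown and -0.14 (-0.17 to -0.11) under PLK1i. With no fewer than 18079 reads in any library, counting error was a small part of either value.

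TREX1 (ENSG00000213689, chromosome 3, 48507210 to 48509044), the main cytosolic DNA exonuclease, had 363 reads in sh-CTL, 679 in the knockdown and 381 under PLK1i. The normalized counts were 423.3, 629.4 and 350.8. Its log2 difference of 0.57 (0.39 to 0.76) in sh-METTL3 was the highest of any member in that comparison, just under 1.5-fold, and it was -0.27 (-0.48 to -0.060) in sh-CTL + PLK1i. TREX1 overlaps ATRIP on the same strand, which had 927, 1047 and 973 reads, and the splitting of reads between them is uncertain. Summed over both genes, the difference in sh-METTL3 shrank to 0.089 (-0.016 to 0.19), while that in sh-CTL + PLK1i stayed at -0.27. ATRIP alone differed by -0.16 in sh-METTL3 and by -0.27 in sh-CTL + PLK1i. It held more of the summed reads than TREX1 in each library, which pulls the sum towards the ATRIP value. The sum therefore cannot tell a TREX1 difference in sh-METTL3 from a different splitting of reads.

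Counted as a group, 1 of 10 members differed at least 2-fold in sh-METTL3, namely AIM2, where 6.37% of all 14949 genes did so and 2.94% were lower. At least 1.5-fold different was 1 of 10, against 14.5% of all genes. In sh-CTL + PLK1i, 0 of 10 members differed at least 2-fold, against 2.52% of all genes, and 0 of 10 at least 1.5-fold, against 7.98%. Counting intervals left out 0 for 9 of 10 members in sh-METTL3, where 55.2% of all genes did so, and for 6 of 10 in sh-CTL + PLK1i, where 45.9% did. The median log2 difference of the members was 0.12 in the knockdown and -0.091 under PLK1i, with medians of 0.0013 and 0.0023 over all genes. Placing AIM2 at its floor could not move the median in sh-METTL3, since AIM2 stays the lowest member there.

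Abundance sets how far a gene's value can scatter, so each member was placed among genes in its own doubling of mean normalized count. In sh-METTL3, AIM2 was the 1 member outside the 5th to 95th percentile of those genes, which ran from -0.96 to 1.20 over 1087 genes. In sh-CTL + PLK1i the 1 member outside was EIF2AK2, below the range of -0.25 to 0.25 over 1400 genes. The other 9 members lay inside in each comparison, and MAVS in sh-CTL + PLK1i lay just inside its range of -0.24 to 0.24. Such a range leaves out 1 gene in 10 by construction, so 1 of 10 members outside equals the share among all genes.

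**Figure D4:**
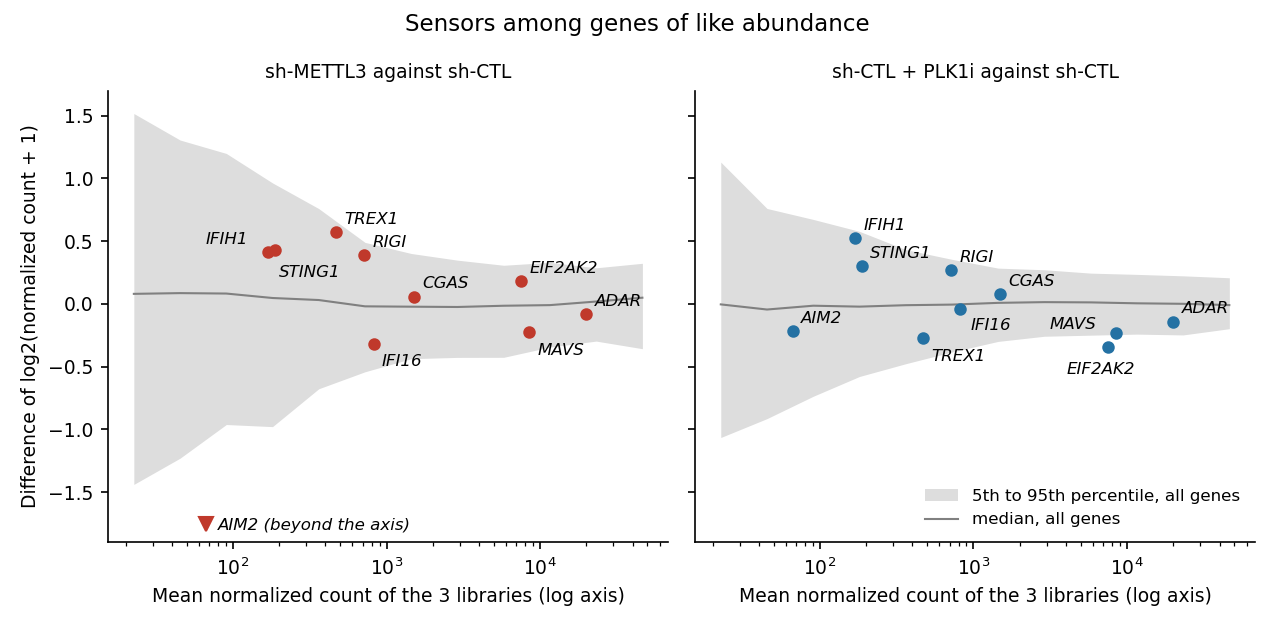
Difference of log2(normalized count + 1) from sh-CTL against the mean normalized count of the 3 libraries (log axis), for the 10 sensors in both comparisons. The grey band joins the 5th and 95th percentiles of all listed genes in each doubling of abundance, which leaves out 1 gene in 10 by construction. AIM2 (left, beyond the axis) and EIF2AK2 (right) are the members outside the range of their own doubling.

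Since METTL3 methylates RNA within short consensus motifs, a common form of which is GGACT, its occurrence was counted in the longest annotated transcript of each gene. The members held a median of 0.704 such motifs per kilobase, and all 14858 annotated genes of the table held 0.920. AIM2 had 1 in 3955 bases, a density equalled or undercut by 11.2% of genes. STING1 had 9 in 3200 bases, or 2.81 per kilobase, a density reached by 2.31% of genes. Motif counts describe the reference sequence, and no methylation was measured in these libraries.

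The other genes of the pathways were taken from 9 lists. The lowest mean normalized count in the table was 7.72, and no value can be given for a gene that was not listed. Among further DNA sensors and cofactors, 12 of 16 were listed, with a median log2 difference of 0.010 in the knockdown and -0.039 under PLK1i. NLRP3, which is also in the inflammasome list below, was the 1 gene at least 2-fold different. It had 24 reads in sh-CTL, 68 in the knockdown and 49 under PLK1i. It rose by 1.14 (0.48 to 1.91) on the log2 scale in sh-METTL3.

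Of 22 further RNA sensors and cofactors 18 were listed, with medians above 0 in both comparisons, 0.20 in the knockdown and 0.24 under PLK1i. OAS1, which makes the second messenger that activates RNase L, was the 1 gene of the list past 2-fold in sh-METTL3, with 21, 84 and 34 reads and a log2 difference of 1.63 (0.97 to 2.43). Also picked after their values were seen, the related OAS2 and OAS3 stood at 0.80 and 0.86, and DHX58 (LGP2), a regulator of RIGI and IFIH1, at 0.96, all past 1.5-fold. IFIT3, an interferon-induced gene picked the same way, stood at 0.98 in sh-CTL + PLK1i.

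Of 24 genes of signalling downstream of the sensors 23 were listed, with medians of -0.032 and 0.012 and no gene past 2-fold. With 6.37% and 2.52% of all genes past 2-fold in the 2 comparisons, a list of this size would hold few such genes in any case. The kinase TBK1 had normalized counts of 1971 in sh-CTL, 1704 in the knockdown and 1942 under PLK1i. IRF3, the factor it phosphorylates, had 3774, 3354 and 3539. Nucleases and other brakes on sensing, 18 of 20 listed, also held 0 genes past 2-fold in either comparison, with medians of -0.022 and -0.031.

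For the inflammasome, through which AIM2 acts, the table listed 5 of 13 genes. PYCARD and CASP1, the adaptor and the protease of the AIM2 inflammasome, were not listed, and neither were GSDMD and IL1B. IL18, a cytokine that caspase-1 matures, had 10 reads in sh-CTL, 333 in the knockdown and 23 under PLK1i. It rose by 4.61 (3.83 to 5.80) in sh-METTL3, the opposite direction to AIM2. NLRP3, counted above, is also in this list, and the median of the 5 genes was 0.97 in the knockdown and 0.43 under PLK1i.

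The genes around EIF2AK2 in the stress response were all listed, 15 of 15. None passed 2-fold in sh-METTL3, where the median was -0.046. DDIT3, a transcription factor induced when translation is curbed through eIF2, had 229, 279 and 582 reads and rose by 1.002 (0.78 to 1.23) in sh-CTL + PLK1i, the library in which EIF2AK2 was lowest. That value lies at the 2-fold line and was under it with scaling by total reads, upper quartile or trimmed mean. The median of the list in sh-CTL + PLK1i was 0.039.

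IFNB1 and the other interferon genes of the list, the outputs of these sensors, were not listed, nor was CXCL10, and 2 of 16 induced cytokines were listed, CCL5 and CXCL8. Neither passed 2-fold. Their log2 differences were -0.12 (-0.84 to 0.59) and -0.65 (-0.76 to -0.55) in sh-METTL3, and 0.69 (0.082 to 1.35) and 0.86 (0.78 to 0.95) in sh-CTL + PLK1i. All 16 genes of the interferon receptor pathway were listed, with medians of -0.051 and -0.076. SOCS1, an inhibitor of this pathway, fell by 1.13 (interval -1.41 to -0.86) in sh-METTL3, with 298, 171 and 320 reads.

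Genes that interferon induces moved in both directions in sh-METTL3. Of 36 such genes 27 were listed, of which 5 rose and 2 fell at least 2-fold, with a median of 0.25. Of all genes in the table, 3.42% rose and 2.94% fell as far. The number of the 27 past 2-fold, 7 in all, was 5 with a pseudocount of 4 and 8 with upper-quartile scaling. SAMD9, an antiviral factor, had 65 reads in sh-CTL, 416 in the knockdown and 118 under PLK1i, and rose by 2.33 (1.97 to 2.75). HERC5, which attaches ISG15 to proteins, rose by 1.38 (1.001 to 1.79), the nuclease ISG20 by 1.36 (0.99 to 1.75) and the helicase DDX60 by 1.08 (0.70 to 1.48). BST2, which tethers virus particles at the cell surface, had 296, 46 and 322 reads and fell by 2.99 (interval -3.50 to -2.57). RSAD2, with 28, 16 and 42 reads, fell by 1.09 (interval -2.12 to -0.20). In sh-CTL + PLK1i the median was 0.0045 and 0 of 27 genes passed 2-fold. Markers of cell type also differed in sh-METTL3. Of the leukocyte markers, 5 of 8 were not listed, CD68 had normalized counts of 1755, 3243 and 2647 in the order sh-CTL, sh-METTL3 and sh-CTL + PLK1i, LYZ had 113.1, 152.9 and 109.6, and CD14 had 43.1, 39.9 and 15.7. The listed epithelial markers KRT8, KRT18 and KRT19 summed to 151510, 182424 and 141582 in that order, with log2 differences of 0.26, 0.27 and 0.43 in sh-METTL3. VIM and ZEB1, 2 of 4 mesenchymal markers, summed to 247681, 188683 and 250261, with VIM at -0.40 and ZEB1 at 0.25. COL1A1 and COL1A2, 2 of 5 fibroblast markers, summed to 51464, 40975 and 40994. Of these, COL1A1 fell from 34 reads to 6 in sh-METTL3, or by 2.63 on the log2 scale, and COL1A2 stood at -0.33. None of 3 endothelial markers was listed. The part of these markers in the differences of the sensor and interferon-induced genes was not tested.

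**Figure D5:**
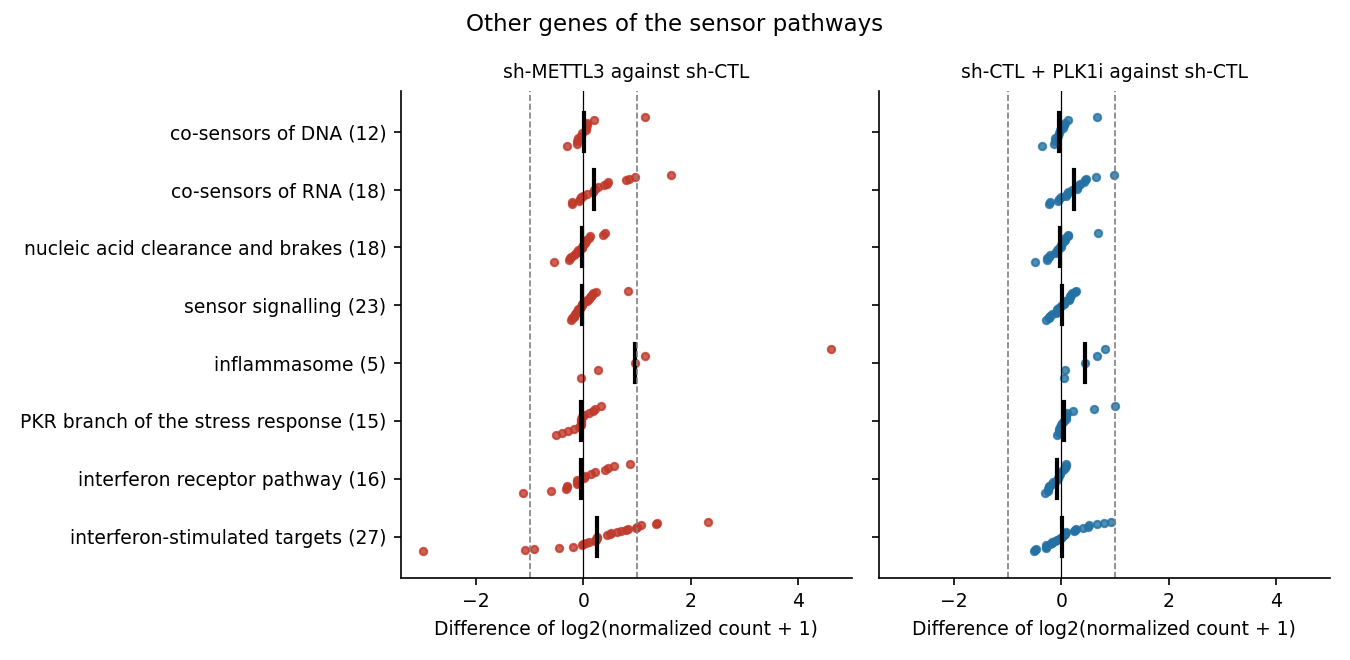
Difference of log2(normalized count + 1) from sh-CTL for the listed genes of 8 pathway lists (number listed in parentheses), each point 1 gene, spread vertically by rank. Black bars are list medians and dashed lines 2-fold, and in the left panel the point farthest right is IL18 and the one farthest left BST2.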

How the data were processed

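The values deposited by the authors are log2 expression values, in a single table of 3 libraries made from polyadenylated RNA with a stranded kit. The submitters' processing notes name FastQC 0.11.9, STAR 2.7.10, RSEM 1.3.3 and hg19. The normalization and the strand setting are not given in the sources used here. The smallest deposited log2 value was 2, and the steps between low values fitted log2(4 + reads x a constant for each library). Undoing this gave whole reads, with 100% of values below 2000 reads within 0.1 of a whole number. One read was worth 1.17, 0.927 and 0.921 normalized counts in sh-CTL, sh-METTL3 and sh-CTL + PLK1i.

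Differences are of log2(normalized count + 1), which understates those of low genes, and called means at least 2-fold. Intervals are 95% exact Clopper-Pearson intervals of the read ratio between 2 libraries. They and the floor of 3 reads cover counting error only, since amplified reads of unmarked molecules are not independent. Error in assigning reads to overlapping genes is not in them either. Whether the recovered whole numbers are counted reads or rounded RSEM estimates is not given in the sources used here. A count test needs replicates and was not run. The scripts (Python 3.11.15, numpy 2.4.6, scipy 1.17.1) were tested on simulated data.

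Positions and exon lengths came from GENCODE 44 on GRCh37, which held 14858 of 14949 gene identifiers, and promoters from RefSeq. Named genes were the members, METTL3 and PLK1, up to 6 genes a list past 2-fold whose mean normalized count reached 20, the genes most like a called member, and PYHIN1, MNDA, IFNB1, IRF3, TBK1, PYCARD, CASP1 and OAS1. A further gene that the rule names is not reported here. The members and lists were chosen with earlier results of these data known. The 25 nearest genes of a member were drawn only from listed genes averaging 50 or more normalized counts over the 3 libraries. Alternatives were pseudocounts of 0.5 and 4, other scalings (total reads, upper quartile, trimmed mean of M values, median of ratios), minimum mean counts of 50 and 200, and subtraction of the 25 nearest genes.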

Additional observations from a re-analysis of the deposited data

How the results depend on the processing

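Of 480 values recomputed under alternatives, 438 were counted as unchanged and 0 as reversed. Unchanged meant inside the counting interval or, for counts of genes, within 1.5 times. Of 144 member differences, 138 were unchanged by this rule. Medians have no counting interval, so this rule could not judge them, and all 126 list medians were counted as unchanged. Some near 0 changed sign. With a minimum mean of 50, the further DNA sensors in sh-METTL3 went from 0.010 to -0.024. The interferon-induced genes in sh-CTL + PLK1i went from 0.0045 to -0.018. With upper-quartile scaling, the signalling genes in sh-CTL + PLK1i went from 0.012 to -0.0041. In sh-METTL3, a minimum mean of 50 took the inflammasome median from 0.97 to 0.63 and that of the induced cytokines from -0.39 to -0.65. The count of members at least 2-fold different in sh-METTL3 was 1 under each alternative except a minimum mean of 200, which left 7 members, AIM2 not among them, and a count of 0. The count at 1.5-fold was 2 with upper-quartile scaling, where TREX1 joined AIM2, and 0 with the minimum mean of 200. In sh-CTL + PLK1i both counts stayed at 0. Other scalings moved no member's log2 difference by more than 0.020. CGAS in sh-METTL3 changed sign, to -0.025, once the median of its 25 nearest genes was subtracted, and its interval included 0 from the start. Summing reads with overlapping genes was added after the data were seen. With a minimum mean of 50, OAS1 and NLRP3 dropped out of their lists. DDIT3 fell under 2-fold in sh-CTL + PLK1i with total-read, upper-quartile and trimmed-mean scaling and with a pseudocount of 4. No paired analysis was possible because each group held 1 library. AIM2, IFIH1 and STING1 had the fewest reads and the widest counting intervals.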
